A study of Homo sapiens with 15 samples.

Results

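Collagens are extracellular matrix proteins whose chains wind around each other into a triple helix, each chain being made from its own gene. The collagen chains were taken as every gene whose symbol is COL, digits, A, digits and nothing more, which gave 44 genes of the 20332 listed for the serum experiment and of the 20323 listed for the overexpression experiment. At least 10 counts summed over the libraries of a deposited table were found for 37, 37 and 36 chains in the serum, MKL1 and caMKL1 tables, and for 39 chains in any of them. COL6A5, COL6A6, COL20A1, COL26A1 and COL28A1 stayed under 10 in every table. The 39 reported chains were 11 fibrillar chains, all 6 basement membrane chains, 3 of 5 beaded filament chains, 9 of 10 chains of the fibril-associated group (FACIT, short fibril-binding collagens with interrupted helices), 3 short-chain network chains, 2 multiplexins, 4 transmembrane collagens and the anchoring fibril chain COL7A1.

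The cells were A375, an established human melanoma line, sampled as 15 bulk RNA-seq libraries in 5 groups of 3. A first set of groups was kept for 48 hours in 10% or in 0.1% fetal bovine serum (FBS), and a second set of 3 groups overexpressed MKL1 or its constitutively active form caMKL1 for the same time or held a control vector. MKL1, listed in the tables as MRTFA, is a coactivator of the transcription factor SRF that actin holds in the cytoplasm and that serum signals release into the nucleus. All groups share the same line, and the labels do not say that replicates were separate cultures, so p-values may measure technical spread only. In bulk RNA, fewer cells that make a chain and less RNA of it per cell cannot be told apart.

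Fibrillar collagens (types I, II, III, V, XI, XXIV and XXVII) build the banded fibres of connective tissue, and type V starts and limits the growth of type I fibres. Type IV collagen forms the sheet of basement membranes, most widely from COL4A1 and COL4A2 chains together, type VI forms beaded microfilaments from COL6A1, COL6A2 and a longer chain such as COL6A3, and FACITs such as types IX and XII sit on fibrils. Newly made chains are hydroxylated by prolyl and lysyl hydroxylases, folded with the chaperone SERPINH1, trimmed by BMP1 and ADAMTS proteases, and cross-linked by lysyl oxidases. In melanoma, collagen is the matrix that invading cells cross and bind through integrins and the DDR receptors.

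The 6 type IV genes lie in 3 head-to-head pairs, in which neighbouring genes are read in opposite directions from a shared stretch of DNA, so their start regions are shown before the values. Promoter windows from 250 bases before to 50 after an annotated start were taken from RefSeq sequences of the GRCh38.p14 build and matched 32 of the 44 chains. Capitals mark the bases that lie in the windows of both genes of a pair. The COL4A2 window at chr13:110307034-110307333 (+ strand) shared 226 of its 300 bases with that of COL4A1, with 126 bases between the starts. The COL4A5 window at chrX:108439588-108439887 (+ strand) shared 121 bases with that of COL4A6, with 379 bases between the starts. The COL4A3 window at chr2:227164374-227164673 (+ strand) shared 82 bases with that of COL4A4, with 418 bases between the starts.
COL4A2: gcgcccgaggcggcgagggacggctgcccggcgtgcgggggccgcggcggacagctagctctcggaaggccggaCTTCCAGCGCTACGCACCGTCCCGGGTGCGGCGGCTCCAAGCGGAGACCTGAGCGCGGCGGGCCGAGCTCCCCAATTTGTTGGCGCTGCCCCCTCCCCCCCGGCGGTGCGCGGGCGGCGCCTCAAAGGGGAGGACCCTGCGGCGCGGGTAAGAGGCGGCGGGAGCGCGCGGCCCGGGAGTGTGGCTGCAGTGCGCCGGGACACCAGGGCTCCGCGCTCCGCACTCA
COL4A5: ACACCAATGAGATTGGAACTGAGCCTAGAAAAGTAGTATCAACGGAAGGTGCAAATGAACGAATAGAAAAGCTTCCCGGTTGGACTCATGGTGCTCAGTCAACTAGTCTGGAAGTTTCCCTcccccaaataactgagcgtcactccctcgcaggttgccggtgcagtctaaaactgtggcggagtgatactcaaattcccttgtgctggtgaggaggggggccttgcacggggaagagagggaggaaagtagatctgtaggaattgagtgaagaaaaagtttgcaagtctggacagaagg
COL4A3: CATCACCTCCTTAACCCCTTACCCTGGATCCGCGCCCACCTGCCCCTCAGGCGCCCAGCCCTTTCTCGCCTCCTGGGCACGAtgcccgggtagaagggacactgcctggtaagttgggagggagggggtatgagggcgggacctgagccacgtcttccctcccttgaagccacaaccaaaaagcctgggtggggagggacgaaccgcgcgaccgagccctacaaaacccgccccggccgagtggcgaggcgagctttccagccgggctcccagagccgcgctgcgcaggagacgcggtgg

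Of letters known as binding motifs, the CArG box bound by SRF was found on either strand in 0 of the 44 collagen windows and in 1.29% of all 35116 promoter windows of the same length. The CATTCC motif, bound by TEAD factors, was in 3 collagen windows (COL10A1, COL11A2 and COL12A1) and in 14.0% of all windows. CCAAT, the NF-Y box, was in 14 collagen windows of 12 genes against 34.6% of all windows, and GGGCGG, the GC box of Sp factors, was in 24 windows of 21 genes against 45.0%. In the pair of COL4A1 and COL4A2 a single CCAAT lay in the capitals above and counted for both genes, beside 2 GGGCGG matches in the COL4A1 window and 1 in that of COL4A2. The stretch that COL4A5 and COL4A6 share held 2 CCAAT matches, and the COL4A6 window 1 more outside it. In the windows of COL4A1 and COL4A2, which hold both motifs, no CCAAT match overlapped a GGGCGG match. A missing match says only that these letters are not in this window.

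Library totals ran from 13937251 to 23957043 counts, so that the 3 counts that a count of 0 allows correspond to between 0.125 and 0.215 CPM (counts scaled to a common library size), covering counting error only. The overexpressed gene MRTFA stood at 25.7 ± 0.21 CPM (SD, n = 3) in vector libraries, 739.7 ± 28.3 in MKL1 libraries and 471 ± 11.4 in caMKL1 libraries, where introduced and endogenous transcripts cannot be told apart. Of the melanocytic markers, SOX10 was at 559 ± 53.8 CPM in 10% FBS and 939 ± 48.2 with the control vector and MITF at 29.8 ± 1.8 and 37.9 ± 3.4, while TYR was at most 0.0982 CPM in any library. In the vector libraries PMEL was at 0.625, 0.623 and 0.582 CPM and MLANA at 0.714, 0.383 and 0.874. S100B was at 39.6, 39.8 and 37.9 there and S100A1 at 52.3, 49.9 and 50.2. DCT went from 2.55, 2.83 and 2.75 with the vector to 0.295, 0.517 and 0.494 with caMKL1 (edgeR adjusted p = 9e-07). Of the 7 of these markers tested with caMKL1, 1 rose and 3 fell, where 63.6% of all genes passed. CPM here are counts scaled with TMM factors within the 6 serum libraries or the 9 overexpression libraries, and the levels of these sets were scaled apart and are not compared by a test.

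Compared per length, as the FPKM values that the authors deposited, a few chains made up most of the collagen message. In 10% FBS the highest were COL4A2 at 107 ± 8.2 FPKM and COL9A3 at 106 ± 10.4, whose libraries overlapped, then COL6A1 at 72.9 ± 6.6, COL4A1 at 62.3 ± 1.8, COL5A2 at 33.9 ± 0.40 and COL6A2 at 31.7 ± 4.9, of which the last pair overlapped (mean ± SD, n = 3). The next chain, COL27A1, was at 5.1 ± 0.086 FPKM. With the control vector the order was COL9A3 at 155 ± 7.2, COL4A2 at 143 ± 2.1, COL4A1 at 65.1 ± 3.8, COL6A1 at 50.9 ± 0.76, COL5A2 at 29.6 ± 0.24 and COL6A2 at 28.6 ± 0.89, with no overlap between neighbours. The chain COL9A3 belongs to collagen IX, best known from cartilage, where it joins COL9A1 and COL9A2. Here COL9A2 was at 13.6 ± 0.99 CPM with the control vector and COL9A1 at 0.359 ± 0.20 CPM, against 386 ± 18.4 CPM for COL9A3. The type I pair that makes the main fibril of skin and bone was low, with COL1A1 at 6.51 ± 0.76 CPM and COL1A2 at 0.592 ± 0.25 CPM in 10% FBS, and COL3A1 was at 0.104 ± 0.077 CPM.

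As shares of the summed collagen FPKM of a library, COL4A1 and COL4A2 together took 37.2 ± 0.89% in 10% FBS, 29.9 ± 0.64% in 0.1% FBS, 36.7 ± 0.64% with the control vector, 39.1 ± 0.44% with MKL1 and 50.6 ± 0.44% with caMKL1 (mean ± SD, n = 3). The share was lower in every library of 0.1% FBS than in any of 10% FBS, and higher in every caMKL1 library than in any vector or MKL1 library. Beaded filament chains took 23.1 ± 1.2% and 28 ± 0.51% in 10% and 0.1% FBS, and 14.6 ± 0.32%, 11.2 ± 0.61% and 8.44 ± 0.091% with the vector, MKL1 and caMKL1. Their share was thus higher in 0.1% FBS and lower with either form of MKL1, with no overlap in either set. A share also moves when other chains change. Of the 3 beaded filament chains tested below, 0 were higher and 2 lower in 0.1% FBS. With caMKL1 1 was higher and 1 lower. The FACIT share was 26.2 ± 0.91%, 31.9 ± 0.27%, 34.4 ± 0.46%, 33.1 ± 0.33% and 25.8 ± 0.069% in the same order of groups, and the fibrillar share 10.6 ± 0.75%, 6.47 ± 0.17%, 10.4 ± 0.27%, 12.9 ± 0.30% and 11.7 ± 0.11%. The summed collagen FPKM itself was 455 ± 28, 354 ± 14, 566 ± 13.8, 469 ± 23.8 and 688 ± 20.1. Within each set the libraries of the groups did not overlap, with 0.1% FBS under 10% FBS, and MKL1 under the vector and caMKL1 above it. These shares rest on FPKM and carry no test.

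**Figure D1:**
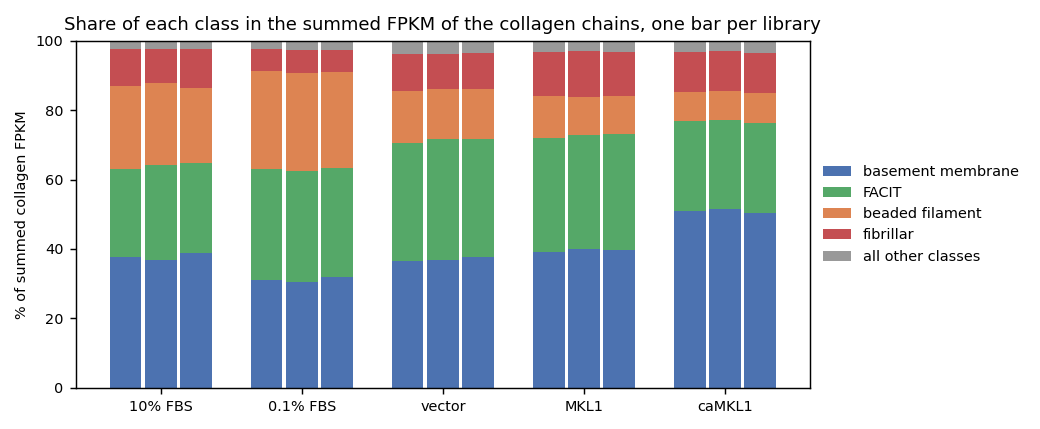
Share of the summed collagen FPKM of each library (%) by collagen class, with a stacked bar for each library, 3 per group. The basement membrane class holds on average 51.0% with caMKL1 against 37.0% with the control vector and 31.1% in 0.1% FBS.

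**Figure D2:**
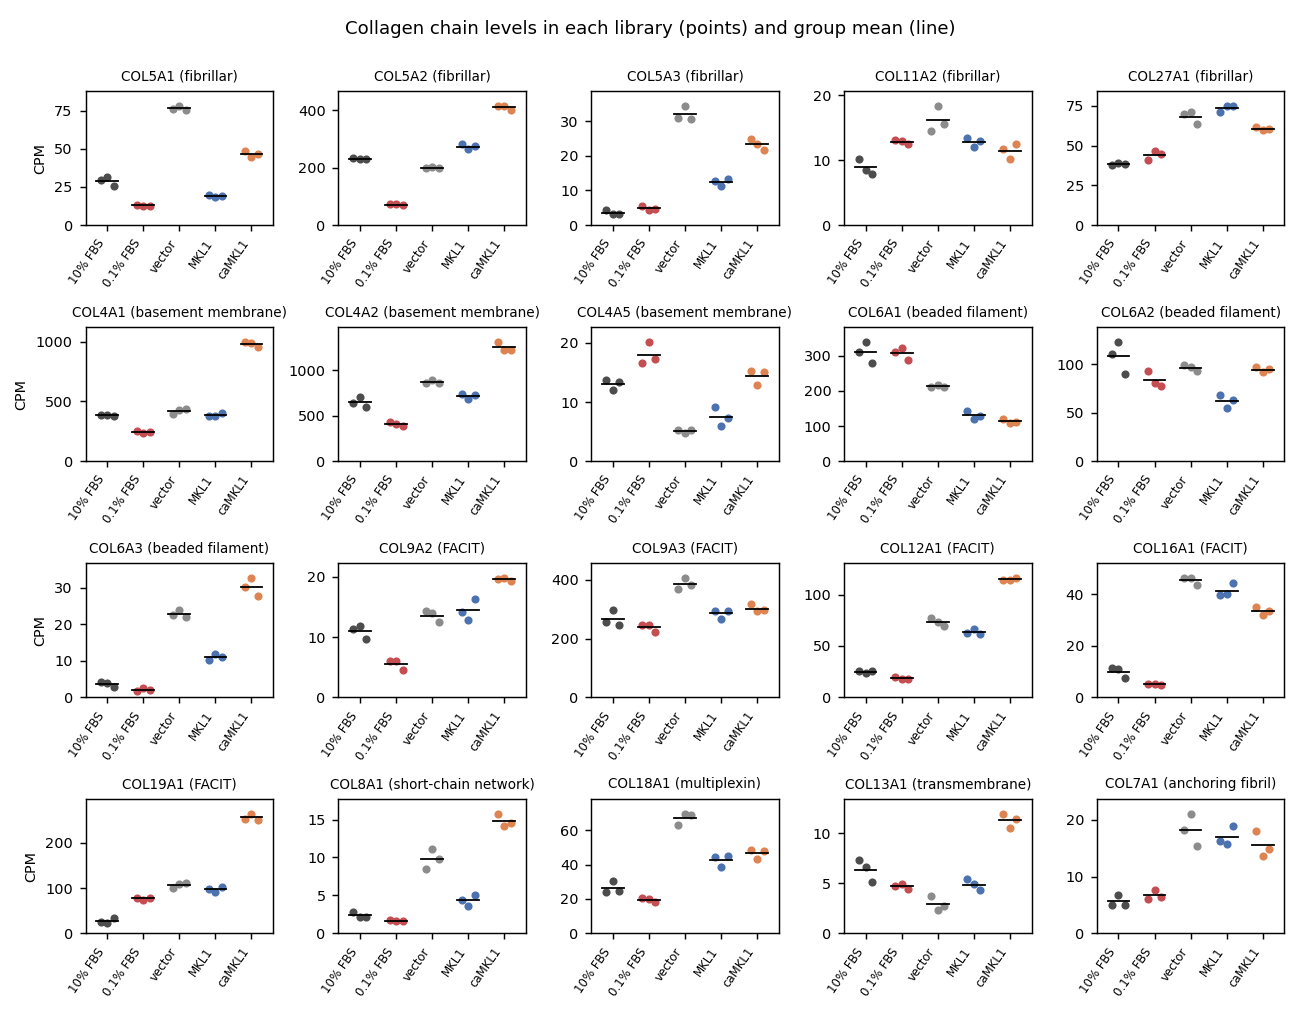
Level of the 20 collagen chains that reach a mean of 10 CPM in any group, in TMM-scaled CPM with a separate scale from 0 for each chain, a point per library (3 per group, 5 groups) and a line for the group mean. The serum and overexpression sets were scaled apart. COL5A2 is lower in 0.1% than in 10% FBS. In the overexpression set COL5A2 is highest with caMKL1 and COL5A1 with the control vector.

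The serum comparison asked which chains differed after 48 hours in 0.1% FBS. COL5A2 fell 3.22-fold, and COL4A1 and COL4A2 fell 1.58-fold and 1.59-fold (n = 3 libraries a group). The fibrillar chains COL5A1, COL1A1 and COL2A1 fell by between 2.24 and 3.67-fold. COL19A1 rose 2.84-fold, and the abundant COL6A1 and COL9A3 did not pass the test. Of the 28 chains tested, 8 were higher, 14 lower and 6 did not pass (edgeR quasi-likelihood test, Benjamini-Hochberg adjusted p under 0.05 over all genes). Over all 13307 genes tested, 62.6% passed, 31.2% as higher and 31.4% as lower. The median log2 fold change was -0.39 over the chains tested and -0.0042 over all genes. The 2 groups did not overlap for 21 of the 22 chains called, nor for 96.6% of all genes called. Among the tested chains, COL2A1, COL4A4, COL24A1, COL1A2 and COL15A1 reached the filter's level in fewer than 3 libraries of a group, and the first 3 of these would not have entered the test without the group where they are high. Among the 39 reported chains, with no filter, the authors' deposited table called 6 up and 12 down (deposited adjusted p under 0.05). The share of all genes that it called is not given here. Of the chains called above, it did not call COL4A4, COL5A3, COL6A2, COL13A1 and COL27A1.

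Among fibrillar chains 4 rose, 4 fell and 1 did not pass. COL5A2, the common partner of COL5A1 in type V collagen, was at 234, 229.9 and 229.7 CPM in the 10% FBS libraries and 73.1, 72.3 and 68.9 in 0.1% FBS. All 3 starved libraries lay far below, at -1.69 ± 0.045 SE on the log2 scale (adjusted p = 5.7e-13). COL5A1 went from 29.5, 31.5 and 25.8 to 13.5, 12.5 and 12.6 CPM (-1.16 ± 0.089 SE, adjusted p = 5.4e-08). COL1A1, the main chain of type I collagen, went from 6.47, 7.29 and 5.76 to 2.37, 3.04 and 2.63 CPM (-1.27 ± 0.17 SE, adjusted p = 1.1e-05), while its partner COL1A2 was between 0.301 and 0.836 CPM in the 6 libraries and did not pass (adjusted p = 0.40). COL2A1, the chain of cartilage fibrils, fell from 2.18, 1.45 and 1.54 to 0.296, 0.478 and 0.639 CPM (-1.88 ± 0.35 SE, adjusted p = 0.00030). For each of these 4 called chains every starved library was under every fed library.

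The fibrillar chains that rose were at lower levels than COL5A2 in both serum groups. COL11A2, a type XI chain, went from 10.2, 8.56 and 7.94 to 13, 13 and 12.5 CPM (0.53 ± 0.11 SE, adjusted p = 0.00088), and COL24A1, a fibrillar chain of developing bone, from 1, 0.542 and 0.704 to 1.48, 2.45 and 1.35 (1.24 ± 0.34 SE, adjusted p = 0.0052). COL27A1, found in cartilage, went from 37.8, 39 and 38.2 to 41, 46.6 and 44.5 CPM (0.20 ± 0.063 SE, adjusted p = 0.011). COL5A3, the less common type V chain, went from 4.24, 3.19 and 3.27 to 5.63, 4.24 and 4.54 CPM (0.44 ± 0.18 SE, adjusted p = 0.044). Their groups lay apart too, but the COL5A3 call was lost with DESeq2 and in 4 of 6 fits that left out a library (10% FBS replicate 2 or 3, or 0.1% FBS replicate 1 or 3; log2 fold change 0.30 to 0.58 over the alternatives), and the COL27A1 call was lost without the replicate 2 library of 0.1% FBS (log2 fold change 0.16). COL3A1, the next gene to COL5A2 on chromosome 2, failed the filter on low counts, with 5 counts in 10% and 28 in 0.1% FBS. Fitted without the filter it passed as higher (2.45 ± 0.69 SE, adjusted p = 0.0044), and the authors' deposited table gives it a log2 fold change of 2.56 (adjusted p = 0.039).

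All 4 basement membrane chains tested changed. COL4A1 and COL4A2, a head-to-head pair, fell, and COL4A5 and COL4A4, of different pairs, rose. COL4A1 went from 384, 390.2 and 382 CPM to 250.2, 234 and 245, at -0.66 ± 0.041 SE on the log2 scale (adjusted p = 5.6e-09). COL4A2 went from 643, 711 and 594 to 427, 408 and 389.6, or -0.66 ± 0.057 SE (adjusted p = 1.5e-07). The log2 fold changes of these neighbours were the same to 2 decimals here, but differed with caMKL1 (1.21 for COL4A1 and 0.51 for COL4A2). The part of their shared stretch was not tested. COL4A5, a chain of kidney and skin basement membrane, rose from 13.8, 12 and 13.4 to 16.5, 20.2 and 17.3 CPM (0.47 ± 0.10 SE, adjusted p = 0.00089), and COL4A4, a chain of the kidney filter, from 0.53, 0.663 and 0.576 to 0.948, 1.67 and 1.35 (1.16 ± 0.34 SE, adjusted p = 0.0081). Without the replicate 2 library of 0.1% FBS the COL4A4 call was lost, at a log2 fold change of 0.94. The authors' deposited log2 fold change of COL4A4, which matches a ratio of mean FPKM and not of counts, has the opposite direction (-0.24). Its deposited FPKM overlapped, at 0.159 ± 0.12 in 10% and 0.135 ± 0.037 in 0.1% FBS. The deposited adjusted p is 0.098, from a test that is not named. Their partners in the head-to-head pairs failed the filter, COL4A6 with 19 counts in 10% and 37 in 0.1% FBS, and COL4A3 with 3 and 15 counts, a ratio of 5.16 scaled for depth (95% exact interval 1.46 to 27.8, counting error only). Without the filter COL4A3 passed as higher (adjusted p = 0.045) and COL4A6 did not (adjusted p = 0.11).

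In the beaded filament class the neighbours COL6A1 and COL6A2 parted. COL6A1 was at 311, 339 and 279.6 CPM in 10% and 309.5, 321 and 288 in 0.1% FBS, with overlapping groups and a difference of -0.01 ± 0.061 SE on the log2 scale (adjusted p = 0.89). COL6A2 went from 111, 123 and 90.5 to 93, 81.2 and 77.7 CPM (-0.36 ± 0.092 SE, adjusted p = 0.0033); it was the called chain whose groups overlapped. COL6A3, the longest of them, went from 4.12, 3.8 and 2.95 to 1.78, 2.63 and 1.99 CPM (-0.76 ± 0.21 SE, adjusted p = 0.0063).

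Among FACITs, COL19A1, a collagen of basement membrane zones, rose from 26, 22.6 and 33.3 CPM to 78.8, 74.6 and 77.8, or 1.51 ± 0.097 SE on the log2 scale (adjusted p = 8.4e-09). That is 2.84-fold, the largest rise among chains tested in this comparison. COL9A2 fell from 11.4, 11.8 and 9.67 to 5.99, 6.09 and 4.54 CPM (-0.97 ± 0.14 SE, adjusted p = 2.5e-05), COL16A1, a minor FACIT of skin and cartilage, from 11.2, 10.8 and 7.56 to 5.27, 5.07 and 4.68 (-0.97 ± 0.16 SE, adjusted p = 8.1e-05), and COL12A1, which binds type I fibrils, from 26, 23.2 and 25.2 to 19.97, 17.5 and 17.7 (-0.42 ± 0.082 SE, adjusted p = 0.00040). The abundant COL9A3 did not pass, at 255, 298 and 247 against 248, 245 and 223 CPM (-0.15 ± 0.064 SE, adjusted p = 0.050), just outside the threshold. It passed in 6 of the 12 alternative fits, and its groups overlapped.

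Of the remaining classes, COL8A2, a chain of the hexagonal network under corneal endothelium, fell from 2.71, 2.65 and 2.11 to 0.771, 1.79 and 1.06 CPM (-1.03 ± 0.29 SE, adjusted p = 0.0059), while its partner COL8A1 was at 2.82, 2.17 and 2.18 and 1.72, 1.61 and 1.63 CPM and did not pass (adjusted p = 0.051). COL18A1, the precursor of endostatin, fell from 23.8, 30.7 and 24.6 to 20.4, 20 and 18.3 CPM (-0.42 ± 0.097 SE, adjusted p = 0.0017); 1401 of its exonic bases, 16.4%, lie over SLC19A1 on the other strand, and whether counting used the strand is not given in the sources used here. COL17A1, the transmembrane collagen of hemidesmosomes, rose from 1.18, 1.02 and 0.704 to 1.6, 2.69 and 2.34 CPM (1.18 ± 0.29 SE, adjusted p = 0.0027). COL13A1, a transmembrane chain at cell junctions, fell from 7.3, 6.63 and 5.19 to 4.74, 4.9 and 4.47 CPM (-0.43 ± 0.15 SE, adjusted p = 0.024), a call lost with DESeq2 and in 4 of 6 fits without a library (10% FBS replicate 1 or 2, or 0.1% FBS replicate 1 or 3; log2 fold change -0.56 to -0.33 over the alternatives). COL7A1, which anchors the epidermis, was at 5.06, 6.75 and 5.06 and 6.1, 7.7 and 6.46 CPM and did not pass (adjusted p = 0.14), though it did without 10% FBS replicate 2 (log2 fold change 0.42, adjusted p = 0.034). COL15A1, whose libraries spread from 0.358 to 1.56 CPM, did not pass. The 9 chains with at least 10 counts that failed the filter had at most 37 counts in a group, and of these COL3A1, COL4A3 and COL9A1 passed without it.

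The overexpression comparisons asked which chains differed with MKL1 and with its constitutively active form. Both are read against the same 3 vector libraries, so their values are set side by side and the forms are compared only by a direct test. The folds come from fits of 6 libraries each, and the CPM from the 9 libraries scaled together. With MKL1, COL5A1 fell 3.98-fold, COL5A3, COL2A1, COL6A1, COL6A2, COL6A3 and COL8A1 fell by between 1.54 and 2.55-fold, and COL5A2, COL13A1 and COL4A6 rose (n = 3 libraries a group). With caMKL1, all 5 tested chains of type IV collagen rose, COL4A1 2.31-fold and COL4A2 1.43-fold. Of these, COL4A4 entered the test through the caMKL1 libraries, where it was high. COL5A2, COL19A1, COL12A1, COL13A1 and COL11A1 also rose, while COL5A1, COL2A1, COL6A1 and COL9A3 fell. For COL5A1, COL5A3, COL6A3 and COL8A1 the level with MKL1 was under that with caMKL1 in every library. Such a gap was general, as the 2 forms did not overlap for any of the 24 chains called between them. The same held for 97.3% of all genes called there.

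Of 29 chains tested with MKL1, 6 were higher, 12 lower and 11 did not pass, where 31.2% of 13409 genes passed, 15.8% as higher and 15.4% as lower (edgeR quasi-likelihood test, Benjamini-Hochberg adjustment). Of 34 chains tested with caMKL1, 19 were higher, 10 lower and 5 did not pass, where 63.6% of 13558 genes passed, 30.5% as higher and 33.1% as lower. Set against MKL1 directly in a fit of 9 libraries, caMKL1 gave 19 chains higher, 5 lower and 10 that did not pass of 34, where 52.2% of 13720 genes passed, 25.2% as higher and 27.0% as lower. With caMKL1, COL3A1, COL4A4, COL17A1 and COL22A1 were called but reached the filter's level in all 3 libraries of the caMKL1 group only, and so entered the test through the group where they are high. Between the MKL1 forms, COL3A1, COL9A1 and COL22A1 were among the 19 higher chains, though no MKL1 library reached the filter's level for them. With library totals in place of TMM, the background between the forms split into 2750 higher and 4942 lower genes against 3463 and 3701. Median log2 fold changes of the chains tested were -0.11 with MKL1, 0.52 with caMKL1 and 0.59 between them, against 0.011, -0.020 and -0.017 over all genes. Among the 39 reported chains, with no filter, the authors' deposited tables called 5 up and 12 down with MKL1, and 16 up and 9 down with caMKL1 (deposited adjusted p under 0.05). The shares of all genes that they called are not given here. Of the chains called above, they did not call COL11A1 with MKL1, nor COL4A4, COL8A2, COL14A1 and COL24A1 with caMKL1.

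**Figure D3:**
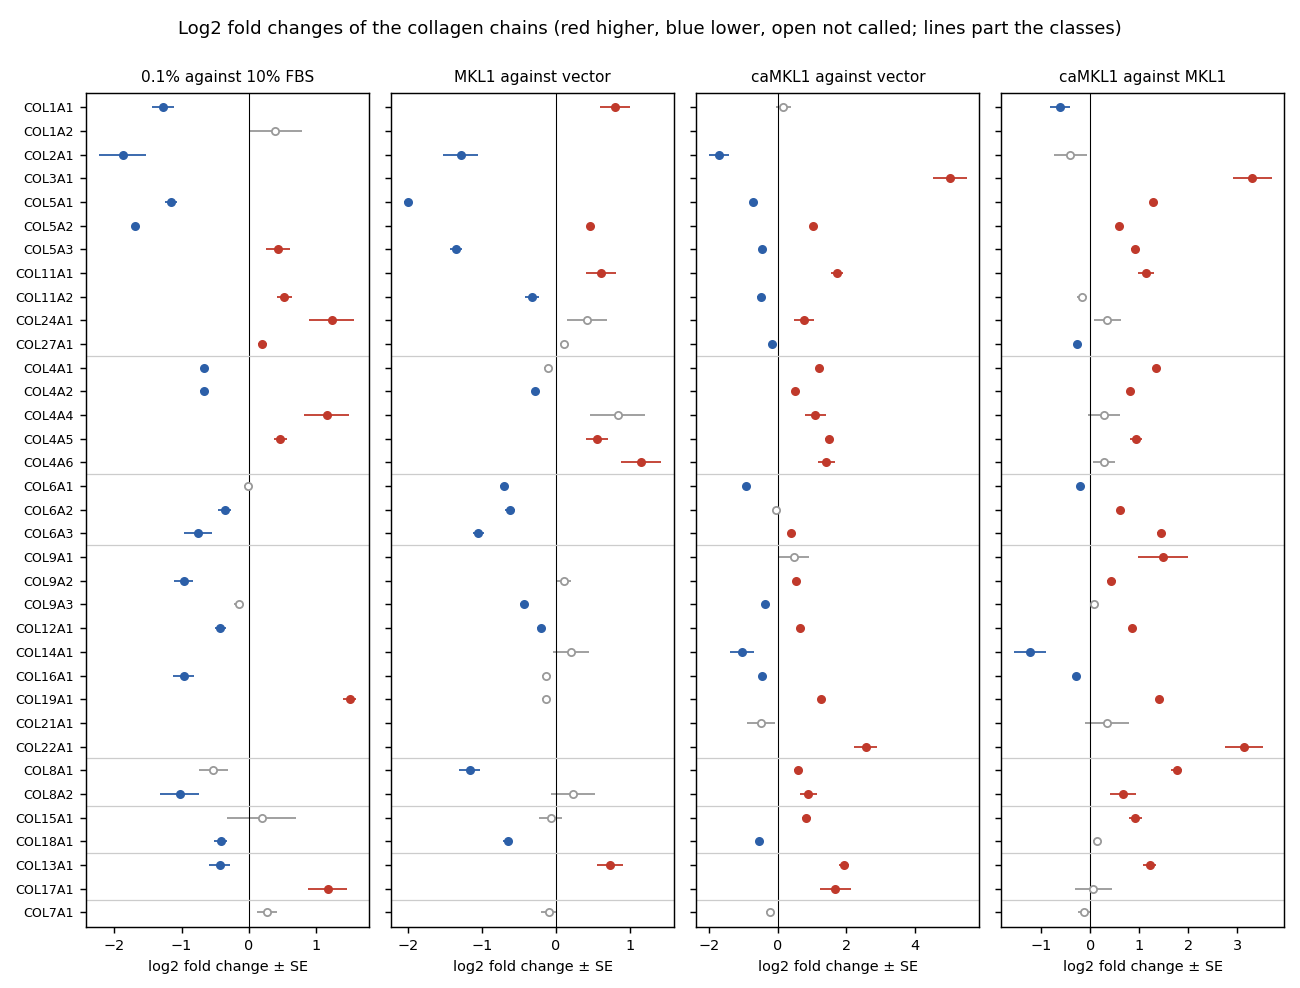
Log2 fold change of each tested collagen chain in the 4 comparisons, by class, with bars for the SE and filled points for an adjusted p under 0.05 (edgeR). All 5 tested type IV chains are filled and above 0 with caMKL1, and COL4A4 entered that test through the caMKL1 libraries. The fitted fold of COL3A1, which had 3 counts in all in the vector libraries, depends on the prior count.

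COL4A1 was at 393, 431 and 436 CPM in the vector libraries, 382, 378 and 407 with MKL1 and 997, 985 and 954 in caMKL1 libraries. The MKL1 libraries overlapped those of the vector (-0.11 ± 0.048 SE, adjusted p = 0.10), with a call as lower in the fit of 9 libraries (-0.13, adjusted p = 0.031) and without vector replicate 1 (-0.15, adjusted p = 0.0071). All 3 caMKL1 libraries lay above both groups, 2.31-fold over the vector (1.21 ± 0.043 SE, adjusted p = 9.3e-12). COL4A2 was at 858, 890.0 and 866, 739.5, 686 and 727 and 1314, 1224 and 1222 CPM in the same groups. It fell with MKL1 (-0.28 ± 0.041 SE, adjusted p = 0.00031) and rose with caMKL1 (0.51 ± 0.039 SE, adjusted p = 4.2e-08), less than COL4A1 did. Between the MKL1 forms the log2 difference was 1.33 ± 0.043 SE for COL4A1 and 0.80 ± 0.039 SE for COL4A2 (adjusted p = 3.6e-14 and 1.2e-11).

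COL4A5 rose from 5.22, 4.79 and 5.33 CPM to 9.19, 6.01 and 7.25 with MKL1 and 15.2, 12.9 and 15.1 with caMKL1. The log2 fold changes were 0.56 ± 0.15 SE and 1.48 ± 0.10 SE (adjusted p = 0.012 and 2e-08), and without MKL1 replicate 1 the former fell to 0.38 and did not pass. Its head-to-head partner COL4A6, a chain of smooth muscle basement membrane, rose from 0.581, 0.719 and 0.874 to 1.91, 1.25 and 1.66 and 1.87, 2.07 and 1.98 CPM (1.15 ± 0.28 SE with MKL1, adjusted p = 0.0069, and 1.42 ± 0.25 SE with caMKL1, adjusted p = 0.00019). COL4A4 was at 0.536, 0.431 and 0.416, 0.638, 1.25 and 0.622 and 0.884, 1.15 and 0.988 CPM and passed with caMKL1 (1.10 ± 0.31 SE, adjusted p = 0.0065) but not with MKL1 (adjusted p = 0.10). It entered the caMKL1 test through the caMKL1 libraries. The authors' deposited table does not call it there (adjusted p = 0.073 in a test that is not named), with a log2 fold change in mean FPKM of 0.091. COL4A6 and COL4A4 did not pass between the MKL1 forms. COL4A3, the head-to-head partner of COL4A4, had 3, 7 and 4 counts in all in the 3 groups and was not tested.

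In type V collagen COL5A1 and COL5A3 fell with both MKL1 forms and COL5A2 rose. COL5A1 stood at 76.3, 78.1 and 75.4 CPM with the vector, 19.7, 18.4 and 19.4 with MKL1 and 48.4, 44.3 and 46.3 in caMKL1 libraries. The 3 groups lay apart, with COL5A1 3.98-fold lower with MKL1 (-1.99 ± 0.056 SE, adjusted p = 4.3e-11) and 1.67-fold lower with caMKL1 (-0.74 ± 0.051 SE, adjusted p = 1.8e-08). COL5A3 was at 30.8, 34.4 and 30.7, 12.8, 11.3 and 13.3 and 25, 23.5 and 21.7 CPM, and fell in the same order of groups (-1.35 ± 0.080 SE with MKL1, adjusted p = 1.5e-07, and -0.46 ± 0.072 SE with caMKL1, adjusted p = 6.8e-05). COL5A2 was at 199, 202 and 198, 282, 264 and 274 and 415, 414 and 401 CPM. It rose with both (0.46 ± 0.042 SE, adjusted p = 9.6e-06, and 1.02 ± 0.038 SE, adjusted p = 1.2e-11), more with caMKL1 (difference 0.59 ± 0.037 SE, adjusted p = 4.3e-10). COL3A1, its neighbour on chromosome 2, had 3 counts in all with the vector, 11 with MKL1 and 89 with caMKL1, a ratio of 37.0 for caMKL1 scaled for depth (95% exact interval 12.3 to 183, counting error only). It entered the test only through the caMKL1 libraries; without the filter its adjusted p was 3.3e-09 with caMKL1 and 0.23 with MKL1. At 1.82, 1.61 and 1.48 CPM in the caMKL1 libraries it remained a low transcript.

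The other fibrillar chains were at lower levels than COL5A2 in every group. COL11A1, the partner of COL11A2 in cartilage fibrils, was at 1.79, 1.87 and 1.54, 2.77, 2.98 and 2.2 and 5.8, 6.61 and 4.94 CPM with the vector, MKL1 and caMKL1 and rose with caMKL1 (1.73 ± 0.17 SE, adjusted p = 7.5e-07). Its call with MKL1 (0.61 ± 0.20 SE, adjusted p = 0.033) was lost with DESeq2 and in 5 of 6 fits without a library (all but MKL1 replicate 3; log2 fold change 0.52 to 0.74 over the alternatives). COL2A1 was at 3.8, 2.87 and 3.04, 0.936, 1.73 and 1.33 and 0.589, 0.862 and 1.61 CPM and fell with both (-1.29 ± 0.23 SE, adjusted p = 0.0012, and -1.72 ± 0.29 SE, adjusted p = 0.00011). COL11A2 was at 14.4, 18.3 and 15.5, 13.4, 12.1 and 13 and 11.7, 10.2 and 12.4 CPM and also fell with both, by smaller steps (-0.32 ± 0.095 SE, adjusted p = 0.021, and -0.50 ± 0.10 SE, adjusted p = 0.00071). The call with MKL1 was lost in 3 of 6 fits without a library (vector replicate 2 or MKL1 replicate 2 or 3; log2 fold change -0.39 to -0.23 over the alternatives). COL1A1 was at 1.79, 1.82 and 1.37, 3.28, 2.6 and 2.69 and 1.72, 1.78 and 2.1 CPM, rose with MKL1 (0.79 ± 0.20 SE, adjusted p = 0.0095, lost at 0.68 without MKL1 replicate 1) and did not pass with caMKL1 (adjusted p = 0.56). The authors' deposited log2 fold changes of COL1A1, in mean FPKM, are 0.064 with MKL1 and -0.44 with caMKL1. Their adjusted p, from a test that is not named, is 0.041 and 0.78. COL27A1 was at 69.9, 70.9 and 63.8, 71, 75 and 74.8 and 61.8, 60.1 and 60.1 CPM, with a fall of -0.18 ± 0.053 SE for caMKL1 (adjusted p = 0.0085) and no call for MKL1 (adjusted p = 0.12). COL24A1 was at 1.38, 1.01 and 0.832, 1.62, 1.54 and 1.16 and 2.5, 1.61 and 1.3 CPM with overlapping groups, and its call with caMKL1 (adjusted p = 0.035) was lost with DESeq2 and in 4 of 6 fits without a library (vector replicate 2 or 3, or caMKL1 replicate 1 or 2; log2 fold change 0.43 to 1.02 over the alternatives).

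All 3 beaded filament chains fell with MKL1, and went 3 ways with caMKL1. COL6A1 was at 211, 217 and 211 CPM with the vector, 143, 121 and 129 with MKL1 and 121, 108 and 112 in caMKL1 libraries, 1.62-fold and 1.89-fold lower (-0.70 ± 0.055 SE, adjusted p = 2.1e-06, and -0.92 ± 0.046 SE, adjusted p = 4.7e-10). COL6A2 was at 99.7, 97.3 and 92.7, 68.8, 55.2 and 63.3 and 97.3, 91.6 and 94.8 CPM. It fell with MKL1 (-0.62 ± 0.067 SE, adjusted p = 3.4e-05), and the caMKL1 libraries overlapped those of the vector (-0.04 ± 0.047 SE, adjusted p = 0.46). COL6A3 was at 22.7, 24 and 22.1, 10.3, 11.8 and 11.2 and 30.2, 32.7 and 27.7 CPM, lower with MKL1 (-1.05 ± 0.078 SE, adjusted p = 1.7e-06) and higher with caMKL1 (0.39 ± 0.072 SE, adjusted p = 0.00029). Between the MKL1 forms COL6A3 differed most of the 3, by 1.45 ± 0.079 SE on the log2 scale (adjusted p = 6.4e-11), against 0.60 ± 0.062 SE for COL6A2 and -0.20 ± 0.054 SE for COL6A1.

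Of the FACITs, COL19A1 was at 101, 108 and 110.3 CPM with the vector, 97.6, 90.4 and 103 with MKL1 and 254, 263 and 251 in caMKL1 libraries. It passed with caMKL1 (1.25 ± 0.046 SE, adjusted p = 1.1e-11) and not with MKL1 (adjusted p = 0.092), where it was called as lower in the fit of 9 libraries (-0.15, adjusted p = 0.030) and without vector replicate 1 (-0.17, adjusted p = 0.018). The difference between them was 1.40 ± 0.049 SE (adjusted p = 1.1e-13). COL12A1 was at 77.4, 72.8 and 69.7, 62.6, 66.1 and 62 and 114, 115 and 116 CPM, higher with caMKL1 (0.64 ± 0.049 SE, adjusted p = 5.2e-08) and lower with MKL1 by a margin (-0.20 ± 0.054 SE, adjusted p = 0.013) lost in 2 of 6 fits without a library (MKL1 replicate 1 or 3; log2 fold change -0.25 to -0.16 over the alternatives). COL9A3, the leading chain of the vector cells by FPKM, was at 369.9, 406 and 381, 295, 267 and 294 and 317, 292 and 296 CPM. It fell with both (-0.43 ± 0.050 SE, adjusted p = 5.3e-05, and -0.37 ± 0.045 SE, adjusted p = 6.5e-06), and the MKL1 forms overlapped. Its partner COL9A2 was at 14.3, 14 and 12.4, 14.2, 12.8 and 16.4 and 19.6, 19.8 and 19.3 CPM and rose with caMKL1 (0.52 ± 0.078 SE, adjusted p = 4.6e-05). COL16A1 was at 46.2, 46.2 and 43.6, 39.7, 40.2 and 44.1 and 35.1, 32.1 and 33.4 CPM and fell with caMKL1 (-0.45 ± 0.059 SE, adjusted p = 1.3e-05). Neither passed with MKL1 (adjusted p = 0.45 and 0.12).

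Of the low FACITs, COL22A1 and COL14A1 were called with caMKL1. COL22A1, a chain of tissue junctions such as that of muscle and tendon, was at 0.179, 0.479 and 0.333 CPM with the vector, 0.17, 0.0962 and 0.373 with MKL1 and 2.16, 1.61 and 2.16 in caMKL1 libraries, 5.9-fold higher with caMKL1. It entered the test only through the caMKL1 libraries, and without the filter its adjusted p was 2e-07 with caMKL1 and 0.54 with MKL1. COL14A1, which binds fibrils in skin and tendon, was at 2.1, 1.72 and 1.12, 1.83, 1.92 and 1.91 and 0.589, 0.517 and 1.36 CPM. Its fall with caMKL1 (-1.04 ± 0.36 SE, adjusted p = 0.020) had overlapping groups and was lost in 3 of 6 fits without a library (vector replicate 1, or caMKL1 replicate 1 or 2; log2 fold change -1.57 to -0.79 over the alternatives). COL9A1 was between 0.0829 and 0.581 CPM and COL21A1 between 0.240 and 0.915 in the 9 libraries, and neither passed with caMKL1. COL9A1 was higher with caMKL1 than with MKL1, where 2 caMKL1 libraries and no MKL1 library reached the filter's level (1.48 ± 0.52 SE, adjusted p = 0.023).

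COL8A1, of the short-chain networks, was at 8.48, 11.2 and 9.86 CPM with the vector, 4.42, 3.61 and 5.02 with MKL1 and 15.7, 14.2 and 14.5 in caMKL1 libraries. It fell with MKL1 (-1.16 ± 0.14 SE, adjusted p = 6.6e-05) and rose with caMKL1 (0.58 ± 0.10 SE, adjusted p = 0.00016), 3.39-fold apart. COL8A2 was at 0.759, 0.862 and 0.832, 1.23, 0.673 and 0.953 and 1.67, 1.67 and 1.24 CPM and rose with caMKL1 (0.89 ± 0.26 SE, adjusted p = 0.0073) but did not pass with MKL1 (adjusted p = 0.58). COL13A1 was at 3.71, 2.35 and 2.75, 5.4, 4.9 and 4.31 and 11.9, 10.5 and 11.5 CPM, higher with MKL1 (0.73 ± 0.18 SE, adjusted p = 0.0073) and 3.81-fold higher with caMKL1 (1.93 ± 0.14 SE, adjusted p = 3.8e-08). All 3 of its groups lay apart.

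COL15A1, a multiplexin next to basement membranes, was at 4.51, 4.89 and 4.49, 5.19, 3.56 and 4.39 and 8.6, 7.47 and 8.96 CPM with the vector, MKL1 and caMKL1 and rose with caMKL1 (0.84 ± 0.12 SE, adjusted p = 2.4e-05), with no call for MKL1 (adjusted p = 0.76). The other multiplexin, COL18A1, was at 63, 69.3 and 68.8, 44.2, 38.6 and 44.7 and 48.2, 43.5 and 47.9 CPM and fell with both (-0.65 ± 0.064 SE, adjusted p = 1.5e-05, and -0.54 ± 0.059 SE, adjusted p = 2e-06), with the shared bases given above. COL17A1 had 14 counts in all with the vector, 45 with MKL1 and 37 with caMKL1, or 0.202 ± 0.12, 0.646 ± 0.23 and 0.677 ± 0.12 CPM. It passed with caMKL1 (adjusted p = 0.0043), failed the filter with MKL1 but passed without it (1.63 ± 0.53 SE, adjusted p = 0.027), and did not pass between the forms (0.06 ± 0.37 SE, adjusted p = 0.90). COL7A1 was at 18.2, 21 and 15.4, 16.3, 15.7 and 19 and 18.1, 13.7 and 14.9 CPM and did not pass, except with caMKL1 when vector replicate 3 or caMKL1 replicate 1 was left out (log2 fold change -0.34 and -0.36, adjusted p = 0.012 and 0.028). COL1A2, COL10A1, COL23A1 and COL25A1 had at most 22 counts per overexpression group and failed the filter; without it COL1A2 passed with caMKL1 (adjusted p = 0.032).

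Markers of other cell types were read beside these results. The summed CPM of the 4 epithelial markers ranged from 6.57 to 8.38 over the vector libraries, 5.06 to 6.78 with MKL1 and 25.2 to 26.1 with caMKL1, with KRT14 alone at 7.36 ± 0.78 CPM with the vector and 25.6 ± 0.55 with caMKL1 and EPCAM, CDH1 and KRT5 at most 0.481. The 3 endothelial markers summed to 0.83 to 1.12, 1.06 to 1.82 and 4.02 to 6.09 CPM, with CDH5 at 0.166 ± 0.064 with the vector and 2.63 ± 0.54 with caMKL1, and the 6 fibroblast markers to 20.3 to 21.1, 21.3 to 27.2 and 27.8 to 30.6 CPM, with THY1 at most 0.385. LUM alone of the 4 fibroblast markers tested was called with caMKL1, at 3.18 ± 0.49 and 12.1 ± 0.81 CPM with the vector and caMKL1, while DCN was at 1.58 ± 0.17 and 1.48 ± 0.22, PDGFRB at 12.4 ± 0.40 and 11.7 ± 0.81, PDGFRA at 2.91 ± 0.40 and 3.74 ± 0.35 and FAP at 0.589 ± 0.29 and 0.119 ± 0.16. In the serum set the epithelial sum was 2.69 to 4.04 CPM in 10% and 0.89 to 1.63 in 0.1% FBS, the endothelial 0.77 to 2.35 and 3.10 to 3.97, the fibroblast 26.5 to 29.8 and 27.5 to 34.2, and the 3 leukocyte markers 10.8 to 16.5 and 17.0 to 17.6, with LYZ at 13.1 ± 2.8 and 16.2 ± 0.31. Leukocyte sums over the vector, MKL1 and caMKL1 libraries were 6.79 to 9.32, 9.29 to 10.2 and 8.45 to 9.39 CPM. The part of these markers in the collagen results was not tested.

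Ratios of counts of chains that pair in a protein do not depend on how libraries are scaled. The ratio of COL4A1 to COL4A2 was 0.596 ± 0.047 in 10% FBS and 0.596 ± 0.030 in 0.1% FBS, where it overlapped (exact permutation test, two-sided, p = 1), and 0.482 ± 0.022, 0.542 ± 0.023 and 0.782 ± 0.023 with the vector, MKL1 and caMKL1 (mean ± SD, n = 3). It was 1.62-fold higher with caMKL1 than with the vector, with every library above (exact permutation p = 0.1, the smallest that 3 against 3 libraries allow). The ratio of COL5A1 to COL5A2 was 0.125 ± 0.012 in 10% and 0.18 ± 0.0060 in 0.1% FBS, and 0.383 ± 0.0024, 0.0702 ± 0.00061 and 0.113 ± 0.0052 in the overexpression groups. It was thus 5.46-fold lower with MKL1 and 3.39-fold lower with caMKL1 (exact permutation p = 0.1 each). COL5A3 to COL5A2 was 0.16 ± 0.0088 with the vector, 0.0455 ± 0.0029 with MKL1 and 0.057 ± 0.0030 with caMKL1, and 4.37-fold higher in 0.1% than in 10% FBS (exact permutation p = 0.1). COL6A1 to COL6A2 was 2.88 ± 0.18 and 3.66 ± 0.31 in 10% and 0.1% FBS, and 2.21 ± 0.078, 2.1 ± 0.077 and 1.2 ± 0.034 with the vector, MKL1 and caMKL1. This ratio overlapped between vector and MKL1 (exact permutation p = 0.2) and lay lower in every caMKL1 library (p = 0.1, exact permutation).

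**Figure D4:**
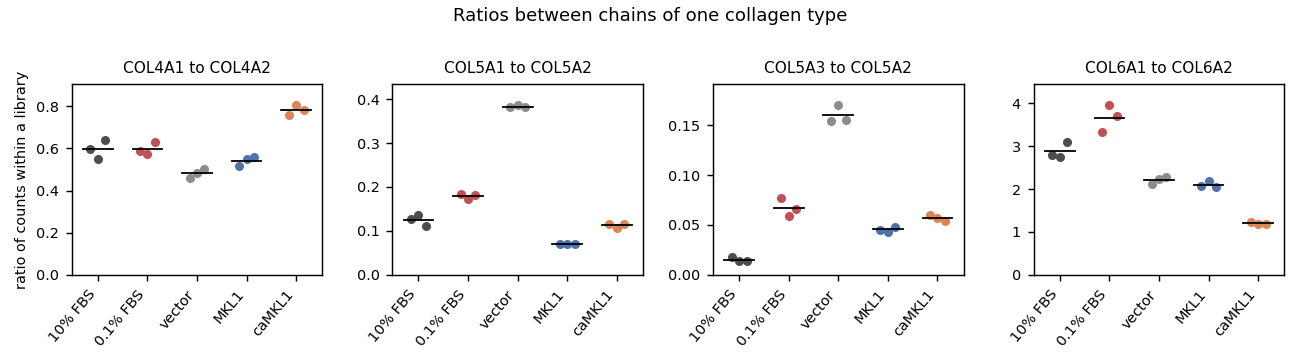
Ratios of read counts between chains of 1 collagen type in each library (points, 3 per group, axis from 0) with the group means. COL5A1 to COL5A2 runs from 0.383 with the control vector to 0.0702 with MKL1. COL4A1 to COL4A2 has its highest group mean with caMKL1 at 0.782.

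The serum and caMKL1 comparisons share no library, so their calls can be set together. Of 20 chains called in both, 8 fell in 0.1% FBS and rose with caMKL1 (COL4A1, COL4A2, COL5A2, COL6A3, COL8A2, COL9A2, COL12A1 and COL13A1), and 5 rose in both (COL4A4, COL4A5, COL17A1, COL19A1 and COL24A1). A further 4 fell in both (COL2A1, COL5A1, COL16A1 and COL18A1), and COL5A3, COL11A2 and COL27A1 rose in 0.1% FBS and fell with caMKL1. Of 13 chains called in both the serum and the MKL1 comparison, 7 fell in both, COL4A5 rose in both, COL1A1, COL5A2 and COL13A1 fell in 0.1% FBS and rose with MKL1, and COL5A3 and COL11A2 did the reverse. Over all 5498 genes called in the serum and caMKL1 comparisons, 15.6% fell in 0.1% FBS and rose with caMKL1, 29.7% rose in both, 38.1% fell in both and 16.7% rose in 0.1% FBS and fell with caMKL1. Over the 2858 genes called in the serum and MKL1 comparisons, 36.6% fell in both, 33.7% rose in both, 16.3% fell and then rose and 13.3% did the reverse. COL4A4 would not have entered the serum or the caMKL1 test without the group where it is high. The same holds for COL17A1 with caMKL1, and for COL2A1 and COL24A1 in the serum comparison. The COL24A1 call with caMKL1 was lost under 5 of 12 alternatives. The numbers of chains and genes given here are counts of calls, with no test of the overlap.

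Of the 20 genes that modify and fold collagen, 7 rose and 9 fell in 0.1% FBS, 3 rose and 6 fell with MKL1, and 7 rose and 6 fell with caMKL1. Over all genes 62.6%, 31.2% and 63.6% passed in these comparisons. P4HA1, a catalytic subunit of prolyl 4-hydroxylase, went from 79.6 ± 3.0 to 146 ± 4.1 CPM in 0.1% FBS (0.89 ± 0.049 SE, adjusted p = 1.7e-09). Its partner subunit P4HB fell from 695 ± 43.3 to 462 ± 8.6 CPM (-0.58 ± 0.045 SE, adjusted p = 5.3e-08), as did the collagen chaperone SERPINH1, from 109.6 ± 5.6 to 64.7 ± 4.6 (-0.76 ± 0.060 SE, adjusted p = 8e-08), and the prolyl isomerase PPIB (-0.37 ± 0.036 SE, adjusted p = 6.7e-07). With caMKL1 the other catalytic subunit, P4HA2, rose from 42.3 ± 1.4 to 155 ± 3.8 CPM (1.86 ± 0.048 SE, adjusted p = 2.1e-13) and with MKL1 it reached 53 ± 1.3 (0.33 ± 0.053 SE, adjusted p = 0.00059). The lysyl hydroxylase PLOD1 rose from 327 ± 12.2 to 717 ± 26.2 CPM with caMKL1 (1.12 ± 0.042 SE, adjusted p = 1.6e-11), and P4HA1 and the isomerase FKBP14 rose by 0.96 ± 0.056 SE and 0.79 ± 0.061 SE (log2). With MKL1 the prolyl 3-hydroxylases P3H2 and P3H3 fell (-0.57 ± 0.11 SE and -0.27 ± 0.056 SE, adjusted p = 0.0017 and 0.0034) and P4HA1 rose (0.30 ± 0.052 SE, adjusted p = 0.00089). SERPINH1 did not pass with MKL1 or caMKL1.

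Of the 13 genes that process and cross-link procollagen, 10, 10 and 11 were tested in the serum, MKL1 and caMKL1 comparisons, where 1, 0 and 4 rose and 4, 4 and 3 fell, against the same shares of all genes (62.6%, 31.2% and 63.6% passed). The lysyl oxidases LOXL4, LOXL2 and LOXL3 fell in 0.1% FBS, LOXL2 from 108 ± 8.5 to 32.5 ± 2.3 CPM (-1.73 ± 0.069 SE, adjusted p = 5.1e-11), LOXL4 from 564 ± 23.3 to 268 ± 4.2 (-1.07 ± 0.042 SE, adjusted p = 4.1e-11) and LOXL3 from 127 ± 8.4 to 67.4 ± 3.7 (-0.91 ± 0.059 SE, adjusted p = 9.3e-09). The enhancers of procollagen trimming parted with caMKL1. PCOLCE fell from 166 ± 8.9 to 60.1 ± 3.5 CPM (-1.48 ± 0.055 SE, adjusted p = 1.6e-11) and PCOLCE2 rose from 14.1 ± 0.37 to 30.5 ± 2.0 (1.10 ± 0.072 SE, adjusted p = 1e-08). PCOLCE2 also rose in 0.1% FBS (0.51 ± 0.075 SE, adjusted p = 3.7e-05). The proteases ADAMTS2, at 2.15 ± 0.52 CPM with the vector, and TLL1, at 0.13 ± 0.080, rose with caMKL1 to 4.63 ± 0.96 and 0.774 ± 0.24 (adjusted p = 0.00031 and 0.00052). TLL1 entered the test only through the caMKL1 libraries, where it was high. With MKL1, LOXL2, PCOLCE, ADAMTS3 and BMP1 fell (-0.52 ± 0.047 SE, -0.75 ± 0.074 SE, -0.27 ± 0.090 SE and -0.23 ± 0.082 SE; the largest adjusted p was 0.047).

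Of the 12 collagen receptors 8 were tested, and 5 rose and 0 fell in 0.1% FBS, 2 rose and 2 fell with MKL1, and 4 rose and 4 fell with caMKL1, where 62.6%, 31.2% and 63.6% of all genes passed. ITGA1, the integrin subunit that prefers type IV collagen, rose from 91.6 ± 8.5 to 437 ± 13.8 CPM in 0.1% FBS (2.26 ± 0.059 SE, adjusted p = 4.6e-13) and from 145 ± 10.5 to 859 ± 36 with caMKL1 (2.55 ± 0.054 SE, adjusted p = 2e-14), with 199 ± 25 CPM for MKL1 (0.46 ± 0.076 SE, adjusted p = 0.00069). Its partner ITGB1 rose with caMKL1 (0.84 ± 0.040 SE, adjusted p = 2.6e-10) and did not pass in 0.1% FBS (adjusted p = 0.26). ITGA10 and ITGA2, other collagen-binding integrin subunits, rose in 0.1% FBS, ITGA10 from 2.92 ± 0.47 to 42 ± 2.1 CPM (3.86 ± 0.11 SE, adjusted p = 7.7e-13) and ITGA2 by 1.28 ± 0.066 SE (adjusted p = 9e-10), and fell with caMKL1 (-1.19 ± 0.14 SE and -0.61 ± 0.062 SE, adjusted p = 3.7e-06 and 9.8e-07). The receptor kinase DDR1 rose in 0.1% FBS (0.51 ± 0.055 SE, adjusted p = 1.6e-06) and fell with MKL1 (-0.36 ± 0.048 SE, adjusted p = 0.00014), and ITGA2 rose and the uptake receptor MRC2 fell with MKL1 (0.25 ± 0.063 SE and -0.25 ± 0.057 SE, adjusted p = 0.0092 and 0.0049).

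Between the MKL1 forms, 7 of the modification genes, 4 of the processing genes and 5 of the receptors were higher with caMKL1 and 3, 2 and 2 lower, where 25.2% of all genes were higher and 27.0% lower. Differences were 1.55 ± 0.044 SE for P4HA2, 1.09 ± 0.040 SE for PLOD1, 1.12 ± 0.078 SE for PCOLCE2, 2.11 ± 0.070 SE for ITGA1 and -0.84 ± 0.066 SE for ITGA2 on the log2 scale (adjusted p at most 1.1e-08). Among the small leucine-rich proteins that coat fibrils, BGN fell with MKL1 from 49.4 ± 1.5 to 23.8 ± 3.2 CPM (-1.05 ± 0.080 SE, adjusted p = 1.9e-06), and in 0.1% FBS (-0.63 ± 0.063 SE, adjusted p = 7.5e-07). LUM rose with MKL1 and caMKL1 (1.06 ± 0.14 SE and 1.91 ± 0.12 SE, adjusted p = 0.00016 and 8.9e-09), and DCN fell in 0.1% FBS, where it was at most 0.237 CPM (-2.42 ± 0.48 SE, adjusted p = 0.00047). DCN entered that test only through the 10% FBS libraries, where it was higher.

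**Figure D5:**
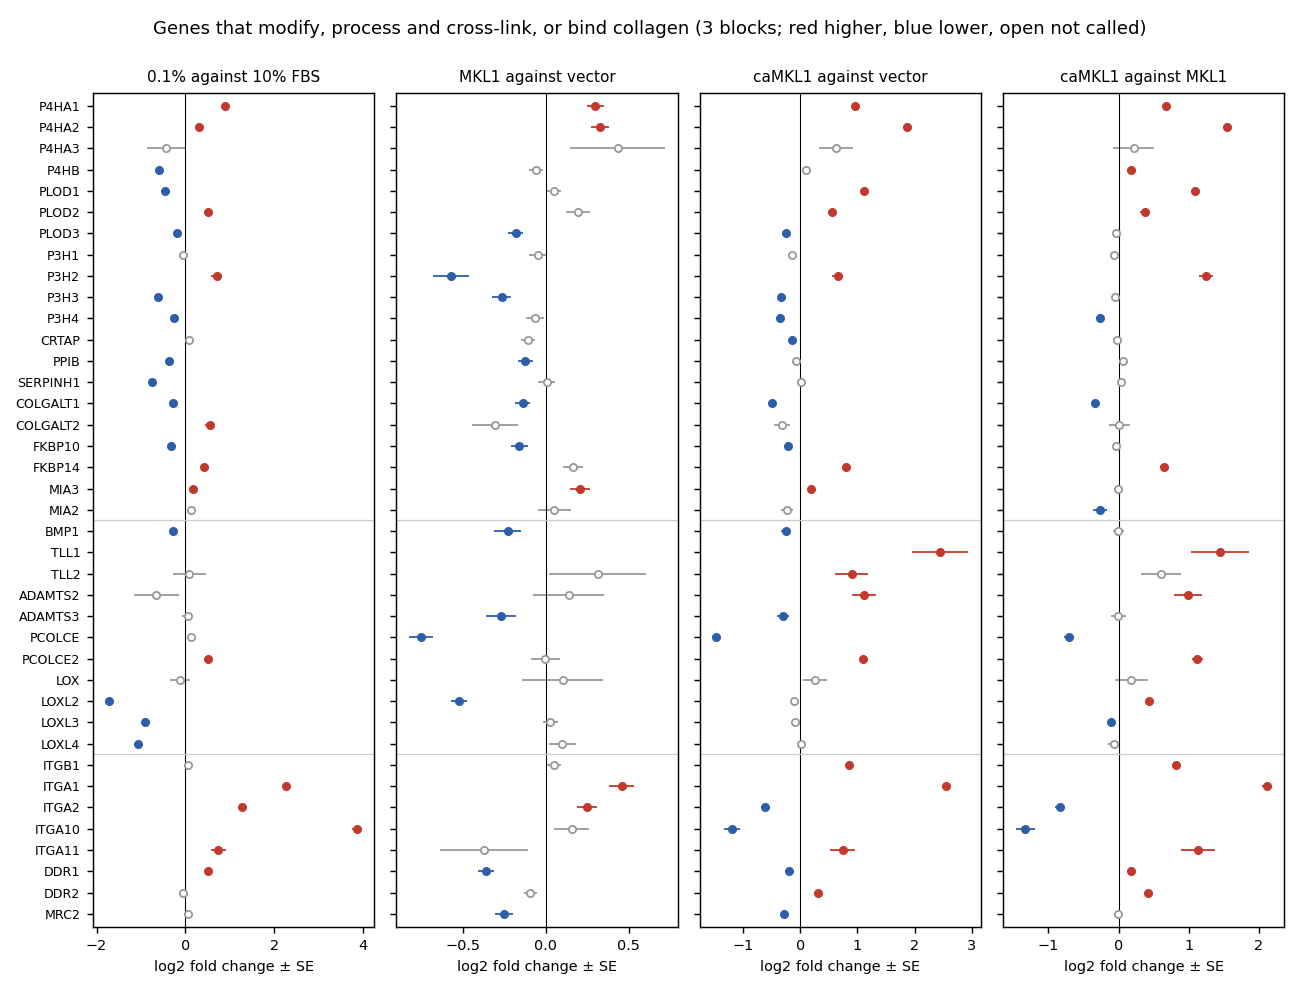
Log2 fold change of genes of collagen modification and folding, processing and cross-linking, and collagen receptors in the 4 comparisons, with bars for the SE and filled points for an adjusted p under 0.05 (edgeR). ITGA1 lies above 0 in all 4. P4HA2 reaches 1.86 with caMKL1.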

How the data were processed

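RNA of 15 A375 libraries was measured as polyA RNA-seq; per the labels' protocols, Trizol extraction and NEBNext Ultra library preparation were used. The submitters' processing notes name GRCh38, HISAT2 2.2.4, Bowtie2 2.2.8, RSEM, StringTie 1.3.1 and DESeq2 without a role; annotation release and use of strand were not given in the sources used here. The deposited counts are whole numbers per gene and library, per the file headers, and may be estimated counts that were rounded. The authors also deposited FPKM per library, used here for levels per length only. The deposited log2 values are the authors' fold changes, and match ratios of mean FPKM for the abundant chains. The deposited p-values, raw and adjusted, are from a test the headers do not name. A deposited fold and its p-value thus need not rest on the same measure. Both were used to count the authors' calls and, for COL1A1, COL3A1 and COL4A4, were given beside the results. The vector counts were identical in both overexpression tables for all 20323 genes. Samples were mapped to columns by their labels, with 0 columns left without a sample.

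The test was that of edgeR 4.0.16, under R 4.3.3 (TMM, filterByExpr with a minimum count of 10, glmQLFit and glmQLFTest, two-sided), with Benjamini-Hochberg adjustment over all genes and a threshold of 0.05. Serum, MKL1 and caMKL1 comparisons used their own 6 libraries, and caMKL1 against MKL1 a fit of 9. SEs were derived from the log2 fold change and the F statistic. The fits were tested on simulated data. Ratios were compared with exact permutation tests (scipy 1.17.1), with 24 ratio changes not adjusted because none can fall under 0.1. Same-numbered replicates correlated between -0.011 and 0.055 in the serum set and -0.13 and 0.099 in the overexpression set, so the numbers were not taken to pair them. Alternatives were RLE size factors, library totals, DESeq2 1.42.0, no filter, a minimum count of 50, a replicate block, a fit of the other number of libraries and leaving out each library. Every chain with at least 10 counts was accounted for and given per library where a group mean reached 1 CPM; type IV and type VI neighbours, COL3A1 with COL5A2, and up to 4 called genes of each list by smallest p were named too. Small leucine-rich proteins are a further list. One leukocyte marker is not reported here and is left out of that list. Members, classes and lists were chosen with earlier results of these data known. Genomic positions are from a GRCh38 annotation, and sequences from RefSeq.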

Additional observations from a re-analysis of the deposited data

How the results depend on the processing

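The counts of chains called kept within 1.5 times of 22, 18, 29 and 24 under every alternative run. In the serum comparison 20 to 23 chains were called when a library was left out and 16 to 26 under the other alternatives; the ranges were 14 to 20 and 17 to 21 with MKL1, 27 to 29 and 21 to 30 with caMKL1, and 22 to 23 and 19 to 24 between the MKL1 forms, where the lowest came from the stricter filter, which tests fewer genes. Over all genes, 2595 to 4094 passed with MKL1 when a library was left out (2595 without MKL1 replicate 3, against 4182), 7463 to 8412 in the serum comparison, 7829 to 8822 with caMKL1 and 6194 to 6497 between the forms. With replicate number as a block, 23, 18, 29 and 23 chains and 8668, 4569, 8710 and 7396 genes passed, and no call of a chain in the report depended on it except COL9A3 in 0.1% FBS, gained at -0.15, and COL8A2 between the MKL1 forms, lost at 0.67. Directions reversed for chains that were not called: COL6A1 in 0.1% FBS (0.022 with library totals; -0.080 to 0.055 when a library was left out, above 0 without 10% FBS replicate 2 or 0.1% FBS replicate 3), COL14A1 with MKL1 (-0.033 to 0.42, below 0 without vector replicate 3), COL15A1 with MKL1 (-0.21 to 0.050, above 0 without MKL1 replicate 2), COL7A1 with MKL1 (-0.21 to 0.0096, above 0 without vector replicate 2) and COL6A2 with caMKL1 (-0.074 to 0.012, above 0 without vector replicate 1). The cause was not tested. Between the MKL1 forms, COL8A2 lost its call under 8 alternatives (0.49 to 0.69) and COL1A1 under 3 (-0.61 to -0.51). Chains that failed the filter on low counts were tested only without it, where COL3A1, COL4A3 and COL9A1 passed in 0.1% FBS, COL17A1 with MKL1 and COL1A2 with caMKL1.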
